A study of Mus musculus with 4 samples.

Results

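The circadian clock genes described here are Nr1d1, Nr1d2, Arntl, Clock, Per1, Per2, Cry1, Cry2, Dbp and Bhlhe40. They were taken from a fixed list of symbols, which was chosen with earlier results of these data known. All 10 were found among the 41388 genes of the count tables and passed the low-count filter. RNA-seq was done on Mnk3, an established mouse line with features of group 3 innate lymphoid cells (ILC3), a lymphocyte of barrier tissues that makes IL-22. The control group (libraries 1 and 2) was left untreated, and the stimulated group (libraries 1 and 2) received the ILC3-activating cytokines IL-1b and IL-23 (each at 10 ng/ml) over about 16 h. All 4 libraries came from the same line and were made from ribosome-depleted total RNA. In each group library 1 is the one titled rep1, and library 2 has no number in its title. Nothing in the labels ties the libraries of a group to separate cultures. P-values therefore reflect the spread among these 4 libraries alone, and that spread may be technical. Clock time at harvest was not given in the sources used here, and each group was harvested at a single time. The values are therefore levels, and rhythm was not measured.

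The mammalian clock is a transcriptional feedback loop. CLOCK and BMAL1 (encoded by Arntl) bind E-box motifs and switch on the Per and Cry genes, whose proteins then inhibit CLOCK and BMAL1. A second loop runs through the nuclear receptors REV-ERB alpha and beta (Nr1d1 and Nr1d2), which repress Arntl at elements that the activating ROR receptors also bind. In ILC3, REV-ERB alpha is known to affect cell number and cytokine output. DBP, a further output of the loop, activates genes through D-box motifs, where NFIL3 acts as a repressor. BHLHE40 (DEC1) represses E-box genes and is also an activation-induced regulator of lymphocyte cytokine genes.

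The motifs of these loops were looked for in promoters of clock genes, and most of the windows held none. Windows ran from 250 bases before to 50 after an annotated start (RefSeq, GRCm38.p6). The lines below show every match in the windows of the 10 clock genes and, as a selection from the other clock transcription factors, an element of Nfil3 and the D-boxes of Per3, the opponent of Dbp and a gene with paired D-box letters. Capitals mark the motif, and each line runs 5′ to 3′ on the strand of its gene. The Nfil3 element is the reverse complement of the Arntl one.

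Per1 E-box, chr11:69098743-69098828, plus strand, intronic in GENCODE M21: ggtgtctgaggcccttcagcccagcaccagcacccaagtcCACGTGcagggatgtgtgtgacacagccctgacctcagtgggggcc
Cry1 E-box, chr10:85185069-85185154, minus strand, upstream of the gene: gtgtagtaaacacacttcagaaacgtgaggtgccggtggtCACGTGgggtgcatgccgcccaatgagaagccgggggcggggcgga
Arntl ROR/REV-ERB element, chr7:113207530-113207558, plus strand, exonic: aaggcagaaagTAGGTCAgggacggaggt
Nfil3 ROR/REV-ERB element, chr13:52981034-52981062, minus strand, exonic: gcgctcggaacTGACCTActaacacacat
Per3 pair of D-boxes, chr4:151044776-151044910, minus strand, upstream of the gene: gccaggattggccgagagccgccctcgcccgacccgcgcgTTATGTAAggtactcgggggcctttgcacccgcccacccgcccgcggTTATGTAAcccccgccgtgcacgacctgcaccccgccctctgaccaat

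Motifs were searched on both strands as CACGTG (E-box), TTACGTAA or TTATGTAA (D-box) and TAGGTCA or TGGGTCA (ROR/REV-ERB element), and none of these letter strings contains another. RefSeq windows were found for 8 of the 10 clock genes, 12 windows in all, and Per2 and Bhlhe40 had none in the table. An E-box lay in 2 of the 12 windows, those of Per1 and Cry1, against 7.15% of 32851 windows of all genes. A ROR/REV-ERB element lay in 1 of the 12, that of Arntl, against 6.45% of all windows, and a D-box in none, against 1.06%. Sites for signal-driven factors, TGACGTCA (CRE, 1.79% of all windows), TGANTCA (AP-1, 7.81%) and the NF-kB motif (0.411%), were in none of the 12. The windows of Dbp, Nr1d1, Nr1d2, Clock and Cry2 held none of these 6 motifs. In 13 windows of the 11 other clock transcription factors, an E-box lay in 4 (of Tef, Ciart and Bhlhe41), a D-box in 2 (Per3 and Timeless) and a ROR/REV-ERB element in 1 (Nfil3). A CRE lay in 1 of these windows (Hlf), an AP-1 site in 1 (Rorb) and the NF-kB motif in none. A match is a description of the sequence and not evidence of binding.

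Stimulation lowered 6 of the 10 clock genes and raised none at an adjusted p under 0.05. Dbp fell most (-2.36 on the log2 scale), followed by Nr1d1, Per1, Cry2, Nr1d2 and Arntl. Over all 13838 genes tested, 18.3% were lower and 17.5% were higher. The median log2 change of the clock genes was -0.62, against -0.02 over all genes tested. Since this list and those below were chosen with earlier results of these data known, such contrasts are descriptions and not independent tests. Without adjustment, at a p under 0.05 in the same edgeR quasi-likelihood test, 6 were lower and 1 was higher, against 23.5% and 22.5% of all genes tested. At an adjusted p under 0.05, neither DESeq2 nor limma-voom called any clock gene higher. Both stimulated libraries lay below both controls for 7 of the 10 and above both for 2. Over all genes tested 36.3% lay below, 34.4% above, and 70.7% on one side or the other. Levels are CPM, counts scaled by TMM to library size, and changes are log2 of stimulated over control ± SE from edgeR, with p-values adjusted by Benjamini-Hochberg over all genes tested. In bulk RNA, fewer cells that express a gene and less RNA per cell cannot be told apart.

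**Figure D1:**
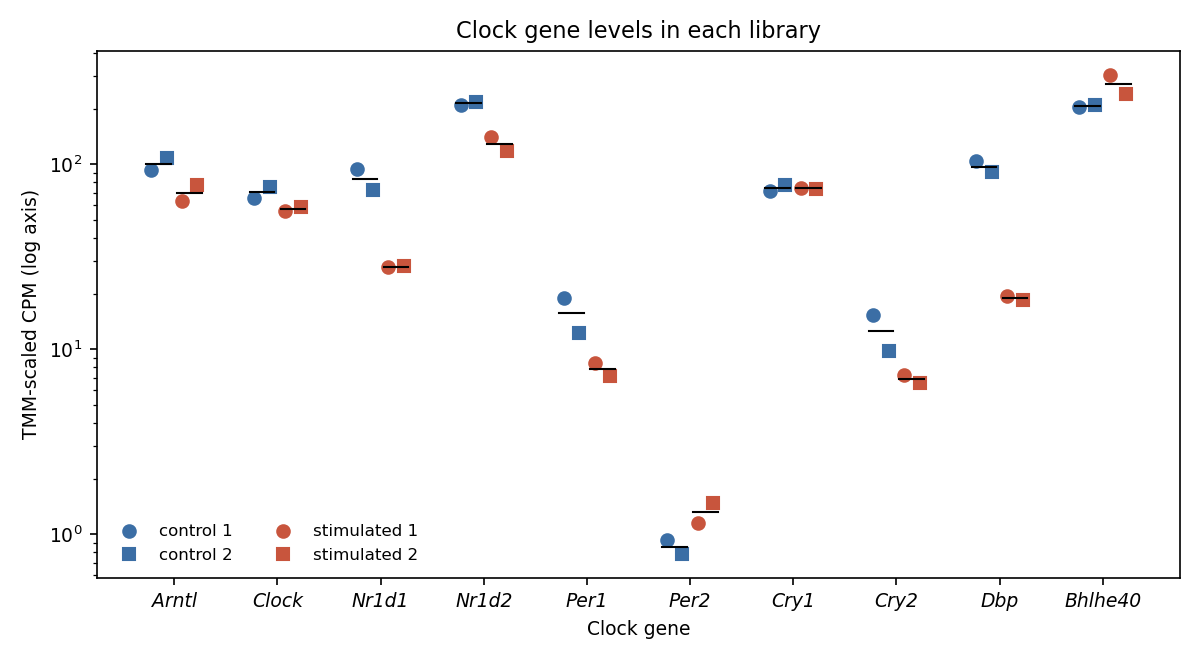
Level of each clock gene in each library, as TMM-scaled CPM on a log axis, with control libraries in blue, stimulated libraries in red, circles for library 1, squares for library 2 and a black line at each group mean. Dbp and Nr1d1 show the widest gaps between the groups, Cry1 overlaps, and Per2 sits near 1 CPM in every library.

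Of the activators, Arntl fell modestly and Clock did not pass. Arntl (chromosome 7, 113207465 to 113314122, plus strand) encodes BMAL1, the partner without which the loop does not run. Its level was 93.4 and 108 CPM in controls 1 and 2 and 63.2 and 77.8 CPM in stimulated 1 and 2. The groups did not overlap, and the change was -0.51 ± 0.16 (edgeR adjusted p = 0.0454). That call was close to the threshold and ended without control 2 (-0.41, adjusted p = 0.165) and without stimulated 1 (-0.37, adjusted p = 0.23), and also without robust estimation (adjusted p = 0.0524). Clock (chromosome 5, 76212177 to 76304548, minus strand) encodes the DNA-binding partner of BMAL1. It had 65.7 and 76.0 CPM in the controls and 55.8 and 59.1 CPM after stimulation. All stimulated values lay below the controls, but the change of -0.30 ± 0.14 did not pass (edgeR adjusted p = 0.145). Npas2, a paralogue that can replace CLOCK, was 20.1 and 10.9 CPM in the controls and 8.54 and 7.26 CPM with stimulation (-0.97 ± 0.31, edgeR adjusted p = 0.052). Its controls differed from each other by 1.85 times, a gap reached by 6.83% of tested genes. Npas2 passed without control 2 (-1.34, adjusted p = 0.00325), in DESeq2 (adjusted p = 0.0231) and with no low-count filter (adjusted p = 0.000302), and the change was -0.46 without control 1 (adjusted p = 0.295). The BMAL1 paralogue gene Arntl2 had 1 to 3 counts per library and was not tested.

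The REV-ERB genes both fell, Nr1d1 more than Nr1d2. Nr1d1 (chromosome 11, 98767932 to 98775333, minus strand) had 93.9 and 72.9 CPM in the controls and 27.8 and 28.3 CPM in the stimulated libraries. The stimulated values were nearly identical to each other and far below both controls. The change was -1.57 ± 0.17, a 2.97-fold decrease (edgeR adjusted p = 0.000992), and 6.39% of tested genes had a change as low or lower. Nr1d2 (chromosome 14, 18204054 to 18239127, minus strand) had 210.4 and 217 CPM in the controls and 140.4 and 119 CPM after stimulation. That is a change of -0.72 ± 0.15 (edgeR adjusted p = 0.00966), with no overlap of the groups, and it did not pass without stimulated 2 (-0.58, adjusted p = 0.0645). Rora, an activating receptor that competes with REV-ERB for the same elements, was also lower. Rora had 896 and 1109 CPM in the controls against 215 and 324 CPM with stimulation (-1.89 ± 0.24, edgeR adjusted p = 0.00188). Rorb, another receptor of the family, was at 2.85 to 5.56 CPM over all libraries with overlapping groups (-0.41 ± 0.32, edgeR adjusted p = 0.36).

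Part of the Nr1d1 transcript lies opposite Thra, the thyroid hormone receptor alpha gene, which is transcribed from the other strand. In the listed exons 263 of the 3077 exon bases of Nr1d1, or 8.55%, overlap exons of Thra. Whether counting used strand was not given in the sources used here, and reads from the shared bases cannot be assigned. Thra changed less than Nr1d1, from 1917 and 1966 counts in the controls to 1100 and 1025 counts (-0.56 ± 0.13, edgeR adjusted p = 0.0175), and its call ended without control 2 (adjusted p = 0.066), stimulated 1 (adjusted p = 0.0973) or stimulated 2 (adjusted p = 0.0806).

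Among the repressors of the main loop, Per1 and Cry2 fell, while Cry1 and Per2 did not pass. Per1 (chromosome 11, 69095217 to 69109960, plus strand), an inhibitor that also responds quickly to cAMP and glucocorticoid signals, had 19.0 and 12.3 CPM in the controls and 8.43 and 7.17 CPM after stimulation. The change was -1.0 ± 0.26 (edgeR adjusted p = 0.0229). Control 1 stood 1.54 times above control 2, and without control 1 the change was -0.66 with an adjusted p = 0.121. Without stimulated 2 it was -0.87 with an adjusted p = 0.0858. Cry2 (chromosome 2, 92403646 to 92434043, minus strand) showed the same arrangement of libraries, with 15.4 and 9.86 CPM in the controls and 7.28 and 6.56 CPM in the stimulated libraries. Its change was -0.86 ± 0.26 (edgeR adjusted p = 0.0409), and -0.51 without control 1 (adjusted p = 0.254). The Cry2 call also ended without stimulated 1 (adjusted p = 0.0779), without stimulated 2 (adjusted p = 0.137) and in limma-voom (adjusted p = 0.0578). For both genes the decrease therefore rests in size on control 1, although the stimulated values were below control 2 as well.

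Cry1, the more potent repressor of the cryptochrome pair, had 71.4 and 77.4 CPM in the controls and 74.8 and 73.7 CPM with stimulation. Cry1 (chromosome 10, 85131702 to 85185054, minus strand) was the only clock gene whose groups overlapped, with a change of 0.00 ± 0.13 in size (edgeR adjusted p = 0.988) whose sign turned with DESeq2 size factors. Per2 (chromosome 1, 91415982 to 91459324, minus strand) was nearly silent, with 28 and 23 counts in the controls and 29 and 34 counts after stimulation. On the CPM scale these are 0.928 and 0.785 against 1.15 and 1.49, and the change of 0.61 ± 0.35 did not pass (edgeR adjusted p = 0.22). Per3, the paralogue not counted among the members, was by contrast well expressed and fell steeply. It had 72.5 and 65.4 CPM in the controls and 25.2 and 20.7 CPM with stimulation (-1.58 ± 0.16, edgeR adjusted p = 0.000858). Ciart, another E-box repressor of CLOCK and BMAL1, had 5.55 to 7.29 CPM over all libraries (-0.16 ± 0.24, edgeR adjusted p = 0.638).

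The steepest decrease of any clock gene was that of Dbp, the D-box activator and a classical output of CLOCK and BMAL1. Dbp (chromosome 7, 45705088 to 45710155, plus strand) had 3146 and 2650 counts in the controls and 489 and 422 counts after stimulation. In CPM these are 104 and 90.4 against 19.3 and 18.5. Each group was tight and the groups lay far apart. The change was -2.36 ± 0.15, a 5.15-fold decrease (edgeR adjusted p = 0.000239), and 2.33% of tested genes had a change as low or lower. Dbp shares 491 of its 2945 listed exon bases, or 16.7%, with exons of Sphk2 on the opposite strand, a sphingosine kinase gene. As for Nr1d1, how reads from the shared bases were counted is not known. Sphk2 went from 3228 and 3027 counts to 2398 and 1817 counts and did not pass (-0.27 ± 0.14, edgeR adjusted p = 0.19).

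The other D-box factors did not all move with Dbp. Tef, a close relative of Dbp with the same binding site, fell from 171 and 177 CPM to 100.4 and 97.6 CPM (-0.81 ± 0.13, edgeR adjusted p = 0.00403). Hlf, the remaining member of that family, had 11.5 and 11.7 CPM in the controls and 12.8 and 13.3 CPM in the stimulated libraries and did not pass (0.17 ± 0.18, edgeR adjusted p = 0.494). Nfil3, which represses the same sites and is required for ILC development, moved upward. It had 8.09 and 7.95 CPM in the controls and 19.0 and 14 CPM after stimulation (1.04 ± 0.22, edgeR adjusted p = 0.0106), with an adjusted p = 0.0556 without stimulated 1. Among the other clock transcription factors 9 of 11 were tested, 1 rose and 4 fell (17.5% higher and 18.3% lower over all genes tested), with a median change of -0.66 against -0.02 over all genes. The falls were those of Rora, Per3, Tef and Timeless, and the increase that of Nfil3. Timeless, whose mammalian product acts mainly at replication forks, fell from 309 and 281 CPM to 198 and 174 CPM (-0.66 ± 0.15, edgeR adjusted p = 0.0135; 0.0848 without stimulated 2).

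**Figure D2:**
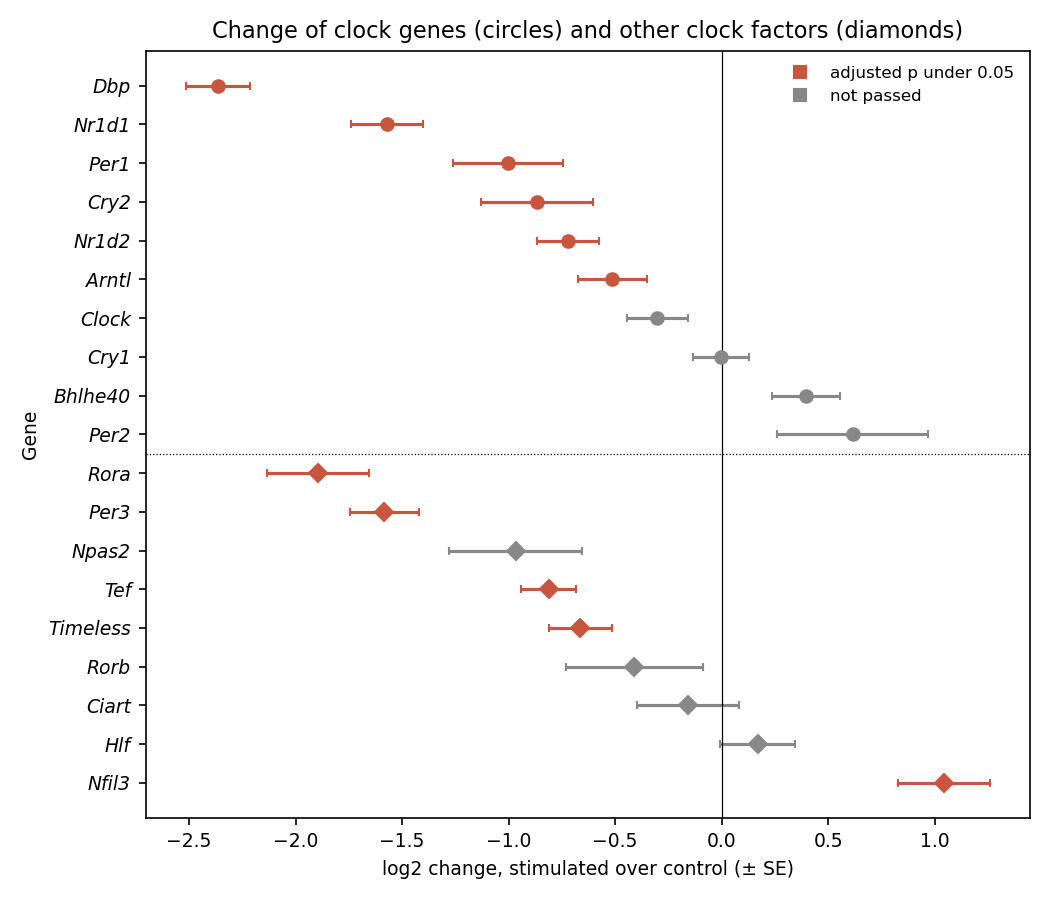
The log2 change of stimulated over control with its SE for the 10 clock genes (circles) and the 9 tested other clock transcription factors (diamonds), red where the adjusted p was under 0.05. Dbp at -2.36 and Rora at -1.89 lie farthest to the left, and Nfil3 at 1.04 is the only red point right of 0.

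Bhlhe40, an E-box repressor with its own role in cytokine production, was the most abundant clock gene per length and did not pass. Bhlhe40 (chromosome 6, 108660629 to 108666925, plus strand) had 206 and 209.7 CPM in the controls and 305 and 241 CPM in the stimulated libraries. Both stimulated values lay above both controls, with stimulated 1 at 1.27 times stimulated 2, and the change was 0.40 ± 0.16 (edgeR adjusted p = 0.0994). Leaving out 1 library gave changes from 0.21, without stimulated 1, to 0.58, without stimulated 2. Its paralogue Bhlhe41 (DEC2) had 0 to 2 counts per library and was not tested. The antisense genes listed opposite Bhlhe40 and Cry2 had 1 to 6 counts in any library.

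Levels can be compared between genes as TMM-scaled CPM per kilobase of the listed length. In control cells the order was Bhlhe40 (63.5 ± 0.91, SD, n = 2), Nr1d2 (42.7 ± 0.929), Arntl (34.6 ± 3.52), Dbp (33.1 ± 3.33), Nr1d1 (27.1 ± 4.82), Cry1 (24.7 ± 1.41), Clock (9.47 ± 0.971), Per1 (2.78 ± 0.834), Cry2 (1.99 ± 0.614) and Per2 (0.146 ± 0.0173). Arntl and Dbp overlapped in their libraries, as did Nr1d1 and Cry1, and Per1 and Cry2, so those neighbours did not differ beyond their spread. After stimulation Dbp (6.42 ± 0.213) stood below Clock (7.69 ± 0.314), and Nr1d1 (9.12 ± 0.132) stood below Cry1 (24.6 ± 0.24). Bhlhe40 remained first at 83.5 ± 14 and Per2 last at 0.225 ± 0.041. Nr1d2, Cry1 and Arntl, at 25.9 ± 3.05, 24.6 ± 0.24 and 24.3 ± 3.55, overlapped. The Per1 and Per2 genes differed in level by more than 5 times in every library.

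Ratios inside a library do not depend on the scaling between libraries. They were taken for 5 gene pairs at the RNA level, and activity of the proteins was not measured. Values are ratios of levels per kilobase, given without a test, since 2 libraries against 2 cannot reach a two-sided exact p under 0.05. Nr1d1 relative to Arntl, the repressor against its target, was 0.949 and 0.638 in controls 1 and 2, against 0.415 and 0.344 with stimulation. Dbp relative to Nfil3, activator against repressor at D-boxes, was 8.87 and 7.82 without stimulation, against 0.699 and 0.907 with it. Per kilobase, Dbp was thus above Nfil3 in both control libraries and below it in both stimulated libraries. That order depends on the listed lengths: in reads Dbp remained above Nfil3 after stimulation, with 489 against 481 counts and 422 against 320 counts. Cry1 relative to Cry2 was 9.76 and 16.5 without stimulation, against 21.5 and 23.6 with it. Per1 relative to Per2 went from 21.2 and 16.3 to 7.64 and 5.02, where the Per2 counts are few. Nr1d1 relative to Nr1d2 was 0.725 and 0.546 without stimulation, against 0.322 and 0.388 with it. The groups were apart for all 5 ratios, but each pair holds a gene already described as changed. No share over other gene pairs was computed, and 70.7% of single genes tested had both stimulated libraries on one side of both controls.

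**Figure D3:**
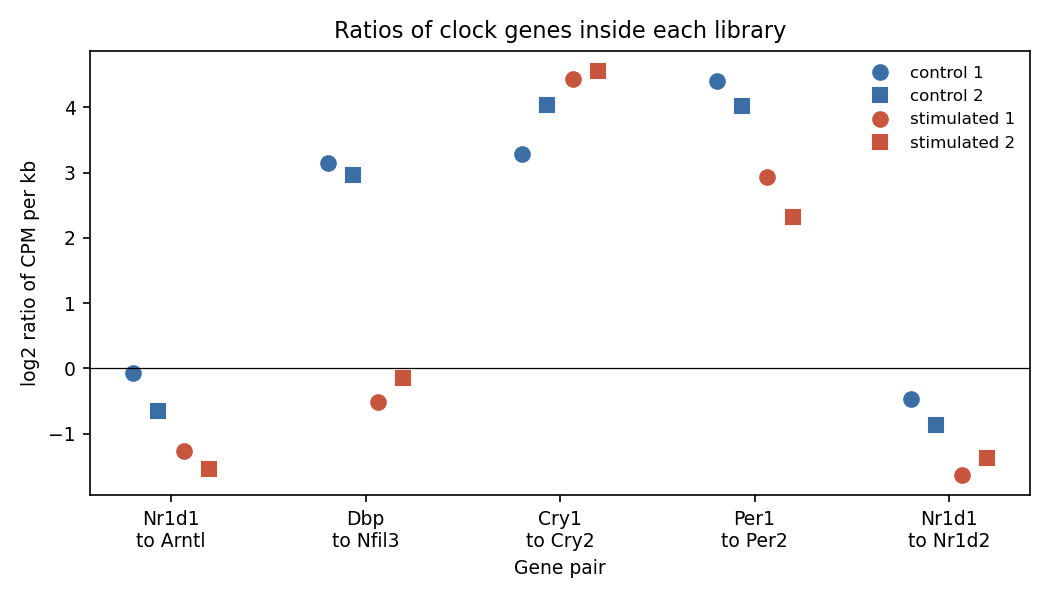
The log2 ratio of CPM per kilobase of 5 gene pairs inside each library, with controls in blue, stimulated libraries in red, circles for library 1 and squares for library 2. The log2 ratio of Dbp to Nfil3, per kilobase, is above 0 in both controls and below 0 in both stimulated libraries.

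Most genes for proteins that modify or assist the clock did not pass. Of 21 listed regulators 19 were tested, 2 rose and 2 fell, with a median change of -0.01, and 35.8% of all tested genes passed in either direction. Cul4a, a scaffold of ubiquitin ligases, changed by -0.71 ± 0.14 (edgeR adjusted p = 0.00855) and Ncor1, the corepressor that REV-ERB proteins recruit, by -0.55 ± 0.15 (edgeR adjusted p = 0.0265). Sfpq, an RNA-binding protein found with PER complexes, changed by 0.47 ± 0.14 (edgeR adjusted p = 0.0342) and Tipin, the partner of TIMELESS, by 0.46 ± 0.13 (edgeR adjusted p = 0.0375). Both calls, but not the size of the changes, were lost when any 1 of the 4 libraries was left out (0.46 to 0.50 for Sfpq and 0.40 to 0.51 for Tipin). With total count scaling the changes were 0.38 and 0.36 (adjusted p = 0.0614 and 0.0659). Cul4a did not pass without stimulated 2 (adjusted p = 0.0561), nor did Ncor1 without control 2 (adjusted p = 0.0861), stimulated 1 (adjusted p = 0.157) or stimulated 2 (adjusted p = 0.0511). The most abundant regulators that did not pass were Ddb1 (0.30 ± 0.19) and Nono (0.29 ± 0.15). Casein kinase genes, whose products mark PER for decay, also did not pass: Csnk1d had -0.08 ± 0.14 and Csnk1e -0.16 ± 0.13.

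Of 10 listed genes known as outputs of the clock, 9 were tested, 2 rose and 2 fell, with a median change of 0.34. These counts are near the shares over all genes tested, 17.5% higher and 18.3% lower. Nampt, the rate-limiting enzyme of NAD salvage, had 72.4 and 89.9 CPM in the controls and 293 and 209 CPM after stimulation (1.63 ± 0.21, edgeR adjusted p = 0.00198). Noct, a phosphatase gene with rhythmic expression in many tissues, rose from 6.96 and 8.70 CPM to 15.9 and 19.2 CPM (1.16 ± 0.21, edgeR adjusted p = 0.00649). Wee1, a kinase that delays mitosis, fell from 51.4 and 54.4 CPM to 29.8 and 34.7 CPM (-0.71 ± 0.15, edgeR adjusted p = 0.0108; 0.0746 without stimulated 1). Tsc22d3, which encodes the glucocorticoid-induced protein GILZ, fell from 55.4 and 74.3 CPM to 25.3 and 37.9 CPM (-1.04 ± 0.24, edgeR adjusted p = 0.0175). Por, an electron donor of cytochrome P450 enzymes, had 0.55 ± 0.21 (edgeR adjusted p = 0.089), from 0.22 without stimulated 1 to 0.84 without stimulated 2. With no low-count filter, a fit that gave smaller adjusted p-values for each called clock gene, the edgeR adjusted p of Por was 0.00468. Fkbp5 had 0.34 ± 0.36. Pdk4 had no count in any library.

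How far each clock gene's decrease holds without any 1 library differed between the members. Dbp stayed between -2.46 and -2.26 and Nr1d1 between -1.74 and -1.38, and both passed in all 4 such fits. Per1 ranged from -1.28 to -0.66, Cry2 from -1.15 to -0.51, Nr1d2 from -0.85 to -0.58 and Arntl from -0.64 to -0.37, each with at least 1 fit that did not pass. In each of these fits 1 group holds a single library, so numbers of calls are not compared here. The directions of these 6 genes stayed the same in every such fit.

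**Figure D4:**
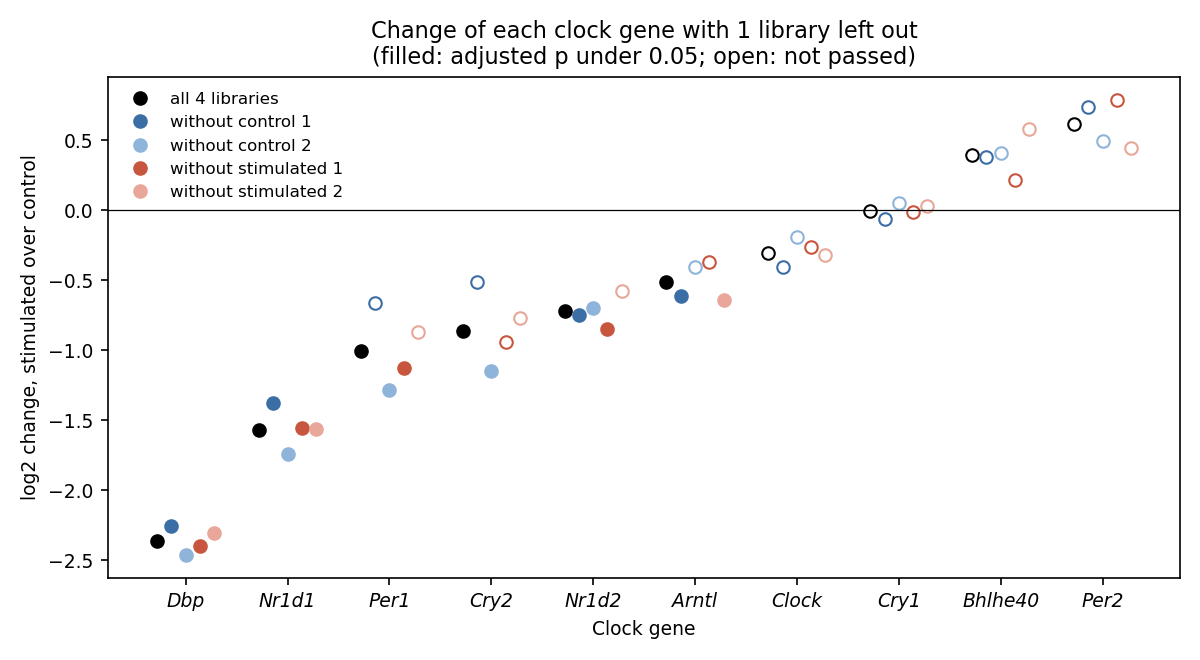
The log2 change of each clock gene with all 4 libraries (black) and with each library left out in turn (blue for a control, red for a stimulated library), filled where the adjusted p was under 0.05 and open where it was not. Dbp and Nr1d1 are filled throughout, and Per1 and Cry2 move closest to 0 without control 1.

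Summed counts ranged from 23047723 to 29078765 per library. All 9 ILC3 markers used were detected, and their summed level was 2807 to 2906 CPM in the controls and 2448 to 3094 CPM after stimulation, of which Il22 alone made up 1592 and 856 CPM in the stimulated libraries. Without Il22 the sum was 2805 to 2902 CPM in the controls and 1502 to 1592 CPM after stimulation. Of the 9, Il1r1, Kit, Gata3 and Il23r fell (-3.07, -2.01, -1.12 and -1.03), Il22 and Id2 rose, and 3 did not pass, among them Il7r at -3.08. Over all genes tested 18.3% were lower and 17.5% were higher. Summed T cell markers were at 36.1 to 46.9 CPM in the controls and 24.8 to 28.4 CPM after stimulation, with Cd8b1 at 0. Of 6 T cell markers tested, Trac fell (-4.33 ± 0.51, edgeR adjusted p = 0.00151) and 5 did not pass. B cell markers summed to 3.12 to 3.79 and 1.66 to 1.92 CPM, stromal markers to 7.46 to 8.57 and 1.42 to 2.19 CPM, and epithelial markers to 1.02 to 1.39 and 0.306 to 0.396 CPM. In controls 1 and 2 most of the stromal sum was Col3a1 (6.73 and 8.43 CPM). Krt8 made up most of the epithelial sum there (1.36 and 0.99 CPM). Myeloid markers summed to 0.961 to 2.12 CPM in the controls and 2.29 to 9.40 CPM after stimulation, with Lyz2, Cd14 and Elane at 0 and Adgre1 at 2 and 0 counts in the controls and 44 and 187 counts after stimulation. The part of these marker levels in the clock gene changes was not tested.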

How the data were processed

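Per the file headers, the tables hold a raw read count per gene. The deposited CPM is that count scaled to the library's total, and the deposited RPKM is the CPM scaled to listed gene length. Both relations were checked on the values, and only counts were used. The submitters' processing notes list STAR, Subread and featureCounts. Versions, genome build, annotation and use of strand were not given in the sources used here. Of 41388 identifiers, 40254 matched GENCODE M21 (GRCm38), 76.1% of these with the same span, as had 6 of the 10 clock genes. Gene coordinates are those of the count tables.

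Groups were compared with edgeR 4.0.16 (R 4.3.3, limma 3.58.1): filterByExpr, TMM, robust quasi-likelihood test with treatment as the only term, and Benjamini-Hochberg adjustment over 13838 genes with a threshold of 0.05. The SE is the absolute change over the square root of F. The script was tested on simulated data. A gene planned for the lists of other clock factors and ILC3 markers is not reported here, and both were computed without it. The members and lists were chosen with earlier results of these data known. Named genes were all 10 clock genes, every tested gene of the other clock transcription factors, up to 5 called and the 2 most abundant uncalled genes of the regulators and of the outputs, and genes overlapping a clock gene. Csnk1d, Csnk1e, Arntl2, Bhlhe41 and Pdk4 were added after their values were seen. Alternatives were DESeq2 1.42.0 (test and size factors), limma-voom, upper quartile and total count scaling, no filter beyond 1 count, 1 CPM in 2 libraries, no robust estimation, blocking on title kind, and leaving out each library in turn.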

Additional observations from a re-analysis of the deposited data

How the results depend on the processing

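Dbp and Nr1d1 passed as lower under every alternative run. Over the 13 alternatives to each of the 10 clock gene changes, 114 kept direction and call, 10 lost a call, 2 gained one and 4 changed sign, the last all for Cry1, whose change is near 0. Cry1 had 0.0157 both with DESeq2 size factors and in the DESeq2 test, and -0.0626 to 0.0555 with 1 library left out. Arntl had -0.51 without robust estimation and Cry2 -0.83 in limma-voom, neither past the threshold. With 1 library left out, ranges were -0.85 to -0.58 for Nr1d2, -0.64 to -0.37 for Arntl, -1.28 to -0.66 for Per1, -1.15 to -0.51 for Cry2 and -0.0759 to 0.76 for Fkbp5. Such fits have fewer samples, and a lone library is assumed to vary like the other group. They called 3 to 5 clock genes (all lower), 3258 to 3958 genes in all (1593 to 2001 higher, 1665 to 2035 lower), 0 to 2 regulators (0 higher, 0 to 2 lower), 0 to 1 other clock factors higher and 1 to 2 outputs lower. Total count scaling, which moved the median of all genes to -0.11, called 2 regulators, 0 of them higher.

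A replicate block for the kind of title (rep1 or none) called 7986 genes, 3986 higher and 4000 lower. It called 8 clock genes, 1 of them higher, with Clock at -0.30 and Bhlhe40 at 0.39 now past the threshold, 8 regulators (4 higher, 4 lower) and 4 outputs higher. Deviations of control 1 and stimulated 1 from their group means correlated across 13838 genes at a Pearson r of 0.58, where genes are not independent replicates. The titles state no pairing, and with 4 libraries the block leaves little residual spread per gene. The cause of these differences was not tested. Per2 was tested on 23 to 34 counts per library.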

Other observations

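Fkbp5 and Tsc22d3 differed between libraries of the same group, and were picked out after their values were seen. Fkbp5, a chaperone cofactor induced by the glucocorticoid receptor, had 149.9 CPM in control 1 and 251 CPM in control 2, and 187 CPM in stimulated 1 and 320.5 CPM in stimulated 2. Library 2 was thus 1.67 and 1.72 times library 1, gaps that 9.84% and 10.5% of tested genes reached. Tsc22d3 lay the same way, with library 2 at 1.34 times library 1 among controls and 1.5 times among stimulated libraries, gaps that 24.8% and 16.5% of genes reached. So did Rora, at 1.24 and 1.51 times, gaps that 37.4% and 16.1% of genes reached. Per1 lay the other way among controls, where library 1 was 1.54 times library 2, and at 1.17 times among stimulated libraries (13.3% and 47.9% of genes). Cry2 (1.56 and 1.11 times) and Npas2 (1.85 and 1.18 times) lay as Per1 did. Nr1d1 did so among controls (1.29 times) but not among stimulated libraries (0.98 times). These are values of 2 libraries per group, with no test.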
